A study of Oryza sativa with 6 samples.

Results

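Nucellar projection cells of A-OsMADS29 (line2) rice seeds were compared with those of wild-type ZH11 seeds, both captured 3 days after flowering. The comparison took the 4 arrays that carry these samples on slide 1, of 6 in the series, with 2 arrays of A-OsMADS29 (line2) and 2 of wild-type ZH11, a japonica rice cultivar that is also the background of the transgenic line. The tissue was cut from fixed seeds by laser capture microdissection, and its RNA was amplified over 2 rounds before labelling with Cy3. The series states that the RNA came from 2 independent biological samples. The plants were grown under the same conditions. Line 2 is 1 transgenic line, and the labels do not say what the prefix of its name stands for or which promoter was used. The other 2 arrays carry A-OsMADS29 (line14) cells of the same stage on slide 2. They share the estimate of the spread in the fit, and their values are given beside those of line 2 for a few genes.

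The nucellus is the maternal tissue that surrounds the embryo sac. After fertilisation most of it is broken down, and the strip next to the main vascular bundle, the nucellar projection, lies on the path by which sugars and amino acids leave maternal tissue for the endosperm. OsMADS29 is a MADS-box transcription factor of the B-sister group, a branch of the floral homeotic genes that acts in ovules and maternal seed tissue, and it is known in rice for its part in the degradation of the nucellus. Genes of sugar export, cell breakdown, hormones and transport are therefore the groups described here.

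Signals are given as log2 values relative to the 75th percentile of the array. No single level marks the background on all arrays, so it is read from a spot flag. The lowest signal flagged as well above background was -8.16 and -9.76 on the line 2 arrays and -8.31 and -8.49 on the wild-type arrays. The spot flag of the scanning software for a signal well above background was set for 75.6% and 79.8% of the probes on the line 2 arrays and for 75.6% and 76.7% on the wild-type arrays. No spot was saturated. One probe was taken for each locus, and 22290 genes and microRNA probes were tested with limma, with Benjamini-Hochberg adjustment over all of them. Of these, 5 genes (0.0224%) were called at an adjusted p under 0.05, 4 higher (0.0179%) and 1 lower (0.00449%) in line 2. At an unadjusted p under 0.05 there were 1428 genes (6.41%), of which 723 were higher and 705 lower in line 2. The median difference over all genes was 0.01. For the median gene the standard error was 0.41 and the 95% interval reached 1.04 to either side on the log2 scale. Even without adjustment, a difference under about 2-fold could thus not be told from the spread of these arrays for such a gene. The calls are adjusted for all 22290 tests and had far larger differences. The smallest among the 5 called genes was -4.89, and Os09g0388400, at -6.83, was not called. The SD of Os09g0388400 was 0.42 in line 2 and 0.13 in wild type. Its SE was 1.45, from a spread that takes in the line 14 arrays, at -4.10 and -8.73.

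Genes differed at least as often between replicates as between the group means. The means of line 2 and wild type were at least 2-fold apart for 14.9% of genes, while the 2 line 2 arrays were that far apart for 15.9% and the 2 wild-type arrays for 26.1%. A mean of 2 arrays varies less than a single array, so these shares are not on an equal footing. Across genes, which are no replicates, the line 2 arrays correlated at Pearson's r = 0.945 and the wild-type arrays at r = 0.916.

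**Figure D1:**
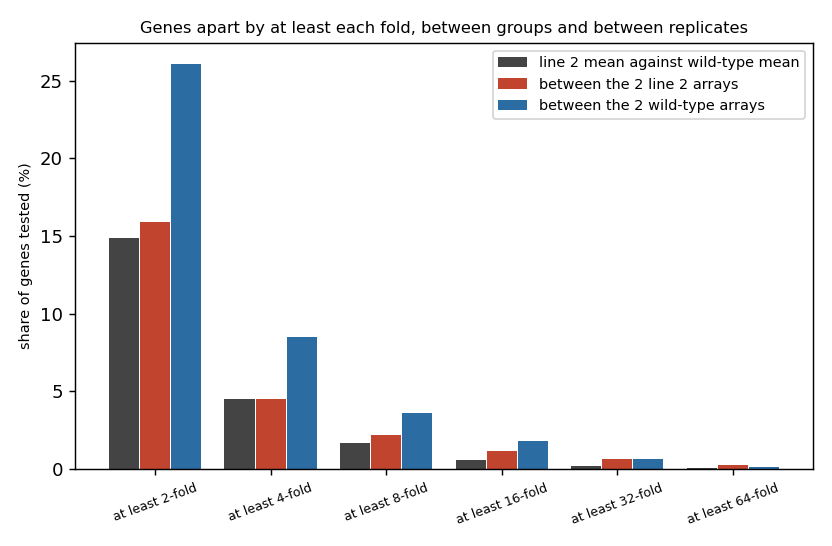
Share of the 22290 genes tested (vertical axis, percent) that were apart by at least 2-fold to 64-fold (horizontal axis), between the means of line 2 and wild type (grey), between the 2 line 2 arrays (red) and between the 2 wild-type arrays (blue). At 2-fold the shares are 14.9%, 15.9% and 26.1%, and at 16-fold 0.583%, 1.15% and 1.78%.

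The large differences between replicates ran mostly one way in line 2. On line 2 replicate 2, 249 genes lay at least 16-fold below replicate 1 and 7 lay that far above it. The 249 genes had a median level of -2.78 on line 2 replicate 1 and -8.23 on line 2 replicate 2, against -3.49 and -3.58 on the wild-type arrays. Their level on replicate 1 was thus near that of wild type. Both wild-type arrays detected 218 of the 249 well above background, and both line 2 arrays 121. Between the wild-type arrays, 112 genes lay at least 16-fold lower and 284 at least 16-fold higher on replicate 2. The 284 genes had a median level of -9.13 on wild-type replicate 1 and -4.05 on replicate 2. Both line 2 arrays detected 267 of them well above background, so such gaps were not particular to line 2. None of the genes in these sets was called between line 2 and wild type, but so wide a gap between replicates left little room for a call.

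Among the genes with a name in the lists used here, 7 belonged to those 249. WX, the granule-bound starch synthase that makes amylose in the endosperm, stood at -1.09 and -6.99 in line 2, against -1.34 and -1.30 in wild type. The same gene stood at -6.87 and -6.40 on the line 14 arrays. NF-YB1, an endosperm-specific subunit of the NF-Y transcription factor, stood at -1.95 and -10.55 in line 2, against -2.24 and -3.39 in wild type, and SSII-3, a starch synthase of the endosperm, at 0.86 and -3.31 in line 2, against -0.40 and -0.95 in wild type. The others were CKX1, RR5, MADS22 and MADS27. In each of the 3 genes given by value, line 2 replicate 1 lay above both wild-type arrays and replicate 2 below both.

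The targeted gene did not differ between the groups beyond their spread. OsMADS29 stood at -0.27 and 0.89 in line 2, against 0.38 and 0.88 in wild type, and the groups overlapped. The difference was -0.32 (SE 0.47, 95% interval -1.51 to 0.88, limma adjusted p = 0.982). The interval spans a decrease of more than 2-fold and an increase of less than 2-fold. A two-sided exact permutation of the 4 arrays gave p = 1.0, where 6 splits allow no p below 0.333. A second probe of the same locus differed by -0.10 (95% interval -1.40 to 1.21). The first probe lies in the coding and 3' untranslated part and the second in the 5' untranslated and coding part. The labels do not say which part of the transcript the transgene affects, so it was not tested whether either probe can show it. Line 14 stood at 0.17 and -0.00.

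The 4 genes used as markers of nucellar projection and nucellus were OsMADS29, SWEET11, SWEET4 and VPE1. All were well above background on all 4 arrays. OsMADS29 is the targeted gene, so it is no independent marker of the tissue. How specific the others are to this tissue was not tested. SWEET11, a sucrose exporter of maternal seed tissue, stood at 5.23 and 5.23 in line 2, against 5.64 and 5.38 in wild type. The 4 markers of nucellar projection and nucellus averaged 2.03 and 2.11 in line 2, against 2.32 and 2.53 in wild type. Markers of other seed tissues were also measured. The 4 markers of green pericarp, all photosynthesis genes, averaged 4.27 and 3.78 in line 2, against 3.97 and 3.38 in wild type, and the 7 of vascular bundle averaged -1.20 and -1.40, against -0.93 and -1.33 in wild type. The nucellar averages of line 2 lay just below those of wild type, and the pericarp and vascular averages overlapped. Of the 4 nucellar markers 2, SWEET11 and SWEET4, lay below wild type on both line 2 arrays, against 17.4% of all genes. OsMADS29 and VPE1 overlapped.

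The 9 endosperm markers averaged -1.65 and -4.35 in line 2, against -2.24 and -2.74 in wild type. The low average of line 2 replicate 2 came with low values of WX, NF-YB1, SSII-3 and SUT1, and the other markers did not share it in full. AGPS2, the small subunit of ADP-glucose pyrophosphorylase, stood at 2.47 and 2.84 in line 2, against 2.53 and 3.01 in wild type, and ISA1, a starch debranching enzyme, at -0.11 and -0.59 in line 2, against -0.50 and -0.95 in wild type. SUT1, a sucrose transporter of the aleurone, stood at 2.48 and -0.51 in line 2, against 3.06 and 2.02 in wild type. The glutelins GLUA1 and GLUA3, storage proteins of the later endosperm, were well above background on 1 line 2 array each and on no wild-type array. GLUA1 was the higher on line 2 replicate 2, at -8.89 and -7.21, and GLUA3 on replicate 1, at -6.57 and -9.31. VP1, a transcription factor of seed maturation and abscisic acid response that is strong in embryos, stood at -5.35 and -8.41 in line 2, against -1.81 and -4.18 in wild type. The other embryo marker, the KNOX gene OSH1, overlapped, at -6.08 and -6.09 in line 2, against -6.10 and -6.05 in wild type. In bulk tissue, fewer cells of a type and less RNA per cell cannot be told apart. The part of endosperm or embryo tissue in the differences below was not tested.

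**Figure D2:**
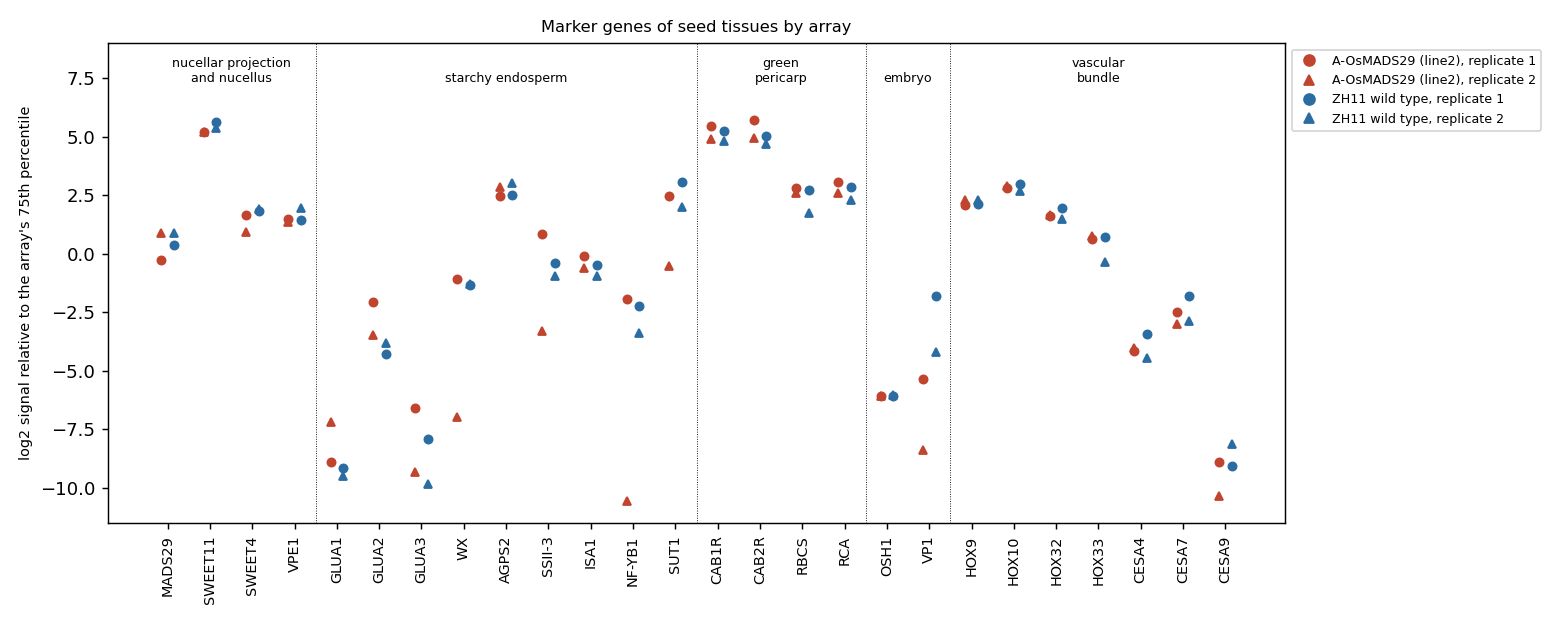
Signal (vertical axis, log2 relative to the array's 75th percentile) of 26 marker genes of 5 seed tissues on the line 2 arrays (red) and the wild-type arrays (blue), with circles for replicate 1 and triangles for replicate 2. WX, NF-YB1 and SSII-3 lie below both wild-type arrays on line 2 replicate 2 and above them on replicate 1. Among the nucellar markers SWEET11 and SWEET4 lie below wild type on both line 2 arrays, while OsMADS29 and VPE1 overlap.

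The 5 called genes all had a clear signal in one group and background in the other. Probes were kept where both arrays of any 1 group were well above background, so the filter let such a pattern pass. Os11g0474000 passed it only through line 2 and Os02g0762900 only through wild type. The SEs of all 5 genes rest in part on background readings. The reference table gave no name for the 5 loci, and each was measured by 1 probe. Os03g0663900 stood at -0.44 and -0.34 in line 2 and at 1.12 and 0.83 in line 14, against -9.43 and -9.89 in wild type, which is background by the spot flag. It was 258-fold higher in line 2 (fitted difference 9.27, SE 0.32, adjusted p = 0.00884). This fold is counted from the lowest signal well above background on the wild-type arrays, or the probe's own signal where that was higher. That lowest signal is no detection limit, since readings without the flag can lie above it. On line 2 replicate 2 it was -9.76, while WRKY76 stood at -7.92 there without the flag. Folds counted in this way are thus not strict lower bounds. Os07g0511400 stood at -0.16 and -0.39 in line 2 and at -0.77 and 0.87 in line 14, against -9.50 and -9.89 in wild type. On the same count it was 279-fold higher in line 2 (adjusted p = 0.0450). Os09g0347300 stood at -1.51 and -1.08 in line 2 and at -1.12 and -2.02 in line 14, against -8.33 and -8.69 in wild type. By that count it was 138-fold higher in line 2 (adjusted p = 0.0450). In these 3 genes both transgenic lines had a clear signal and wild type was in the background. The lines were set against the same wild-type arrays, so these are not independent comparisons.

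The other called genes showed another pattern over the lines. Os11g0474000 stood at -2.18 and -1.64 in line 2 and at -8.60 and -8.88 in line 14, against -9.55 and -10.01 in wild type. It was 89.6-fold higher in line 2 by the same count (difference 7.87, SE 0.35, adjusted p = 0.0195), and it was not well above background in line 14. The difference of line 14 minus line 2 was -6.83, which missed the threshold (adjusted p = 0.0830). Os02g0762900 was the gene called lower. It stood at -9.18 and -9.15 in line 2 and at -7.07 and -6.82 in line 14, against -4.06 and -4.49 in wild type. It was 20.8-fold lower in line 2, counted from the lowest signal well above background on the line 2 arrays (difference -4.89, SE 0.31, adjusted p = 0.0450). Neither line had a signal well above background for it.

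All 5 calls rested on the line 14 arrays in the estimate of the spread. With the 4 arrays of slide 1 alone the differences were the same and no gene was called, with adjusted p values of the 5 genes between 0.0671 and 0.172 and 1351 genes at an unadjusted p under 0.05. Under median scaling the calls split into 4 higher and 0 lower, and under normexp background correction into 4 higher and 3 lower.

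**Figure D3:**
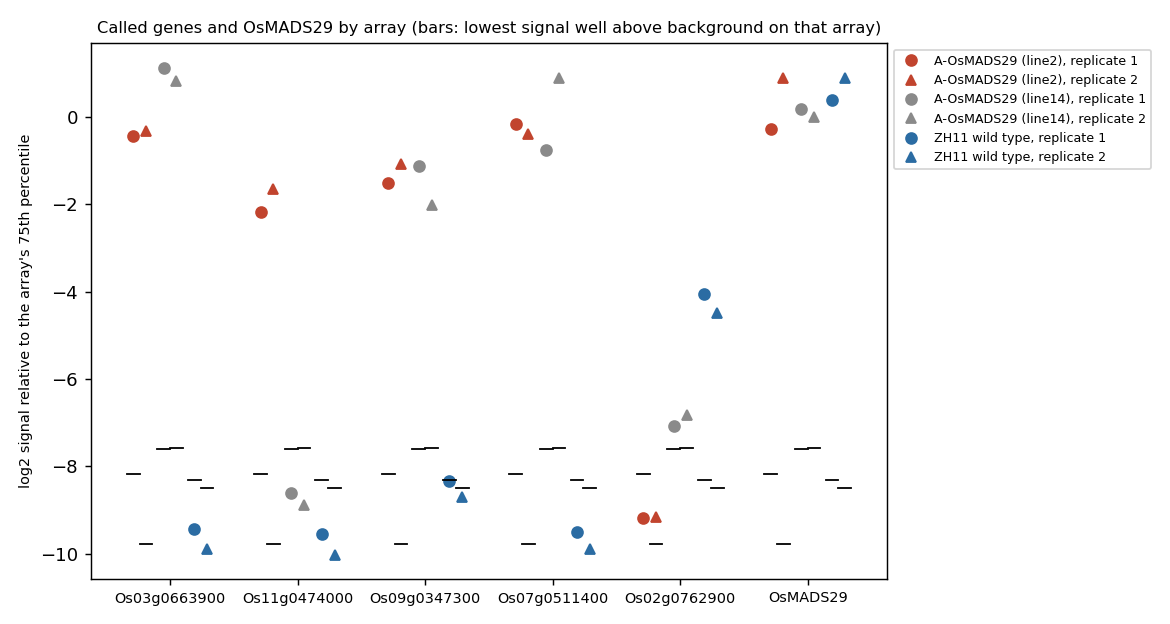
Signal (vertical axis, log2 relative to the array's 75th percentile) of the 5 called genes and OsMADS29 on each array of line 2 (red), line 14 (grey) and wild type (blue), with circles for replicate 1 and triangles for replicate 2. Short bars mark the lowest signal that was well above background on that array, and the 4 genes called higher lie far above it in line 2 and at or below it in wild type.

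More genes passed from background to signal without being called. There were 277 genes (1.24%) well above background on both line 2 arrays and on neither wild-type array, and 124 genes (0.556%) with the reverse pattern. The floor is the lowest signal well above background, and the median of the first set was 3.82-fold over it. Of the 277 genes 238 were at least 2-fold, 126 at least 4-fold and 23 at least 16-fold over it. In the set seen in wild type and not in line 2, the median was 7.45-fold over the floor. Of these 124 genes 121 were at least 2-fold, 97 at least 4-fold and 22 at least 16-fold over it. Of the 277 genes 4 were called, and of the 124 genes 1, the same 5 as above.

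Of the 20162 genes well above background on all 4 arrays, none was called by limma and 901 (4.47%) had an unadjusted p under 0.05. The 10 largest differences towards line 2 ran between 3.09 and 4.97, with adjusted p values of at least 0.0807, and the 10 largest towards wild type between -6.83 and -4.37, with adjusted p values of at least 0.0795. Os03g0172100 stood at 0.41 and 0.66 in line 2, against -3.36 and -5.51 in wild type, and Os02g0720900 at -1.94 and -0.69 in line 2, against -3.73 and -6.33 in wild type. Os09g0388400 stood at -6.51 and -5.92 in line 2, against 0.53 and 0.70 in wild type. Os03g0637600 stood at -6.05 and -7.37 in line 2, against -0.56 and -2.35 in wild type. These 4 genes were picked from the largest differences without overlap, and none of the 4 passed the threshold.

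Lists of named genes were then followed. Of 254 genes whose names matched the reference table, 220 passed the filter on dim probes and none was called. In 35 of the 220 both line 2 arrays lay above both wild-type arrays, and in 37 below, against 3376 (15.1%) and 3870 (17.4%) of all genes tested, together 32.5%. For 12 of them the means were also at least 2-fold higher and for 19 at least 2-fold lower, against 4.86% and 5.4% of all genes, together 10.3%. At an unadjusted p under 0.05 there were 20 of 220, against the 6.41% of all genes given above. The median difference over the lists was -0.02.

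**Figure D4:**
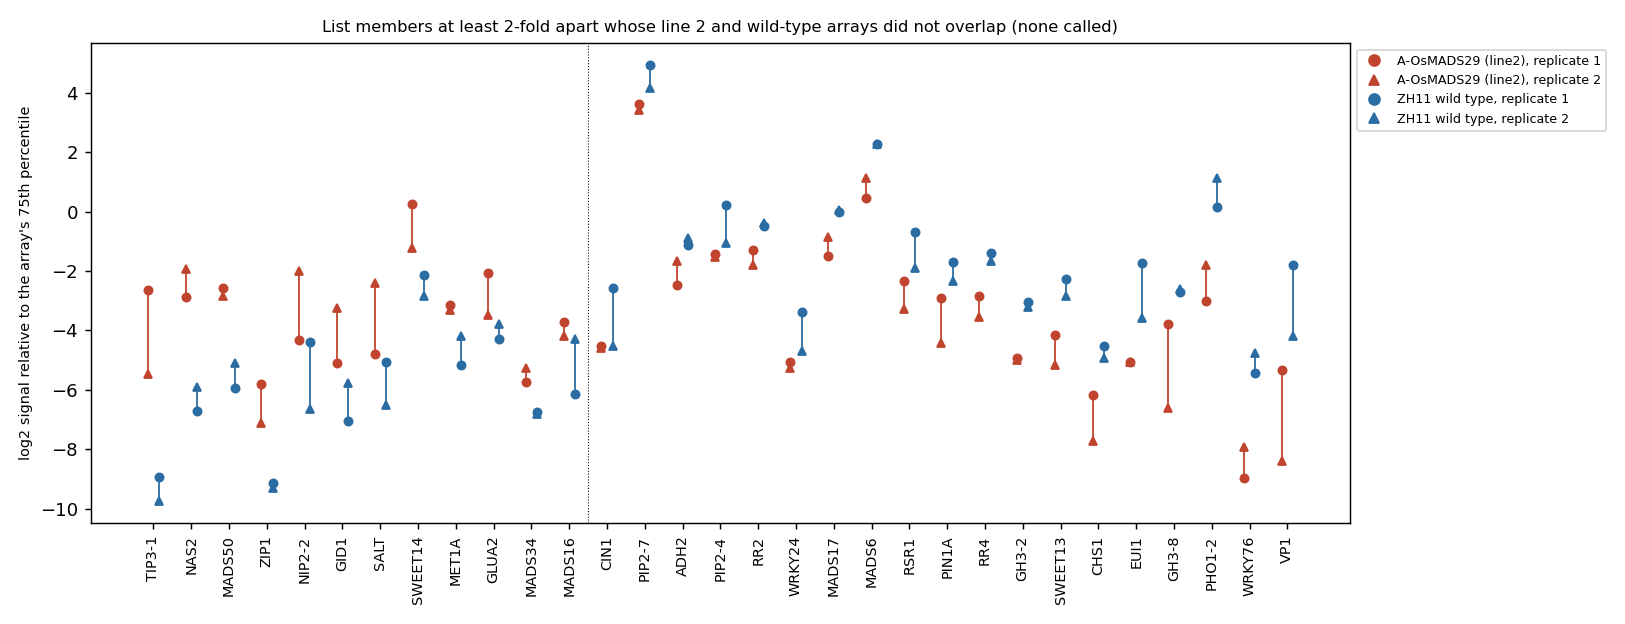
Signal (vertical axis, log2 relative to the array's 75th percentile) of the 31 list members that were at least 2-fold apart with no overlap, for line 2 (red) and wild type (blue), with circles for replicate 1, triangles for replicate 2 and a line between them. The 12 genes left of the dotted line lie higher in line 2 and the 19 to its right lie lower, and none was called.

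MADS-box genes were the family of the targeted gene, and all 26 listed passed the filter. None was called, the median difference was -0.13, and 3 of 26 lay above wild type on both line 2 arrays and 5 below, against 15.1% and 17.4% of all genes. MADS50, a SOC1-type promoter of flowering, stood at -2.57 and -2.86 in line 2, against -5.95 and -5.10 in wild type (difference 2.82, SE 0.39, adjusted p = 0.141). The line 14 arrays, at -5.26 and -5.03, lay with wild type for this gene. The AGL6-type genes MADS6 and MADS17, which act in floral organ and ovule identity, both lay below wild type. MADS6 stood at 0.45 and 1.11 in line 2, against 2.28 and 2.28 in wild type (difference -1.50, SE 0.38, adjusted p = 0.463), and MADS17 at -1.48 and -0.86 in line 2, against -0.01 and 0.06 in wild type. In line 14 MADS6 stood at 0.52 and 1.13 and MADS17 at -1.43 and -1.39, likewise below the wild-type arrays.

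Among the other MADS-box genes, MADS7, a SEPALLATA-type gene, stood at 4.25 and 4.56 in line 2, against 4.33 and 4.41 in wild type. The D-class genes MADS13 and MADS21, which act in ovules, differed by -0.06 and 0.05, with 95% intervals of -0.89 to 0.76 and -0.80 to 0.91. The B-class gene MADS4 stood at 2.82 and 2.31 in line 2, against 3.65 and 3.29 in wild type, while MADS16, the other B-class type, stood at -3.72 and -4.20 in line 2, against -6.15 and -4.29 in wild type. MADS34, a SEPALLATA-type gene of the inflorescence, stood at -5.73 and -5.26 in line 2, against -6.73 and -6.80 in wild type. Only 1 of the 2 wild-type arrays showed it well above background. MADS22, an SVP-type gene, stood at 1.00 and -3.36 in line 2, against -0.82 and -0.02 in wild type.

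Genes of cell breakdown gave small differences. Of 8 listed proteases and cell death genes 4 were tested and none was called. None of the 4 was without overlap, against 32.5% of all genes. VPE1, a vacuolar processing enzyme, stood at 1.51 and 1.38 in line 2, against 1.43 and 1.96 in wild type. ASP1, an aspartic protease, stood at 4.66 and 4.62 in line 2, against 3.95 and 4.79 in wild type. All 6 autophagy genes were tested, and their differences ran from -0.24 to 0.72. The largest was that of ATG5, which joins ATG12 in building the autophagosome. It stood at -2.15 and -1.65 in line 2, against -2.87 and -2.37 in wild type.

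Auxin and cytokinin genes had the lowest medians among the hormone lists, -1.22 over 6 genes and -0.91 over 12 genes, beside 0.01 over all genes. None was called. Over the auxin list 4 of 6 genes lay below wild type on both line 2 arrays, against 17.4% of all genes. GH3-2 and GH3-8 encode enzymes that conjugate auxin to amino acids. GH3-2 stood at -4.94 and -4.99 in line 2, against -3.05 and -3.20 in wild type (difference -1.84, SE 0.31, adjusted p = 0.220), and GH3-8 at -3.79 and -6.61 in line 2, against -2.70 and -2.60 in wild type. The auxin exporter gene PIN1A stood at -2.91 and -4.42 in line 2, against -1.69 and -2.34 in wild type, whereas PIN1B, a second exporter gene, at 2.48 and 2.69 in line 2, lay between the wild-type values of 3.71 and 2.04. In line 14, GH3-2 stood at -5.10 and -5.60.

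Type-A response regulators, which are induced by cytokinin and damp its signal, made up most of the low end of the cytokinin list. RR4 stood at -2.85 and -3.56 in line 2, against -1.40 and -1.66 in wild type, and RR2 at -1.30 and -1.80 in line 2, against -0.50 and -0.37 in wild type. RR1, at -0.98 and -2.05 in line 2, also lay below the wild-type values of -0.79 and -0.65. CKX1, an enzyme that degrades cytokinin, stood at -1.77 and -6.83 in line 2, against -0.95 and -2.46 in wild type. The array medians of the list were -1.14 and -2.20 in line 2 and -2.73 and -0.75 in line 14, against -0.87 and -0.94 in wild type. Line 2 replicate 2 carried much of the list's difference: without it the median was -0.03, and the other arrays left out in turn gave -1.35 to -0.50. The auxin median ran from -1.52 to -0.88 when each of the 4 arrays was left out.

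Gibberellin genes were split. EUI1, a cytochrome P450 that inactivates gibberellins, stood at -5.05 and -5.07 in line 2, against -1.73 and -3.60 in wild type (difference -2.39, adjusted p = 0.494). GID1, the gibberellin receptor, stood at -5.10 and -3.26 in line 2, against -7.06 and -5.78 in wild type. SLR1, the DELLA repressor on which that receptor acts, stood at 0.85 and 0.42 in line 2, between the wild-type values of 1.20 and 0.17. Of 7 genes tested 2 lay above and 2 below wild type on both line 2 arrays, against 15.1% and 17.4% of all genes. In the abscisic acid list SALT, a lectin induced by salt and abscisic acid, stood at -4.78 and -2.41 in line 2, against -5.06 and -6.52 in wild type, and VP1, given above with the embryo markers, had a difference of -3.88 (adjusted p = 0.648).

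Sugar transport genes divided by family member. SWEET14, a sucrose exporter, stood at 0.26 and -1.24 in line 2 and at 0.24 and 0.55 in line 14, against -2.12 and -2.86 in wild type (difference 2.00, SE 0.58, adjusted p = 0.559). SWEET15, a sucrose exporter that acts with SWEET11 in filling the seed, stood at 4.40 and 4.26 in line 2, against 3.84 and 2.83 in wild type. SWEET13, another exporter of the clade, stood at -4.16 and -5.16 in line 2, against -2.26 and -2.84 in wild type. None of the 3 overlapped between the groups. SWEET4, a hexose transporter of seed filling, stood at 1.64 and 0.92 in line 2, against 1.85 and 1.91 in wild type.

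Sucrose cleavage showed smaller differences. CIN1 and CIN2 are cell wall invertases. CIN1 stood at -4.54 and -4.60 in line 2, against -2.57 and -4.52 in wild type, and CIN2 at 4.29 and 4.37 in line 2, against 4.84 and 4.81 in wild type. The 4 sucrose synthases tested overlapped between the groups, with differences of -0.41 to 0.20, while 32.5% of all genes did not overlap. Over the 16 sugar genes tested the median difference was -0.17, with 2 above and 5 below wild type on both line 2 arrays (15.1% and 17.4% of all genes) and none called.

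All 10 starch genes tested overlapped between the groups, while 32.5% of all genes did not overlap. Their median difference was 0.06, and AGPS2 and ISA1 are given above with the endosperm markers. The 2 members with the widest line 2 spread were WX and SSII-3, given above. RSR1, an AP2-type factor that represses starch synthesis genes in rice endosperm, stood at -2.35 and -3.29 in line 2, against -0.67 and -1.89 in wild type. GLUA2, a glutelin and the one storage protein gene of 5 to pass the filter, stood at -2.06 and -3.47 in line 2, against -4.28 and -3.79 in wild type.

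Among the aquaporins, TIP3-1, a channel of seed vacuole membranes, stood at -2.63 and -5.46 in line 2 and at -2.78 and -3.34 in line 14, against -8.92 and -9.74 in wild type, which is background. It was 20.4-fold over the floor and missed the threshold (adjusted p = 0.247). NIP2-2, a silicon channel, stood at -4.31 and -2.01 in line 2, against -4.39 and -6.64 in wild type. The plasma membrane aquaporin PIP2-7 stood at 3.60 and 3.40 in line 2, against 4.93 and 4.17 in wild type, and PIP2-4 at -1.42 and -1.54 in line 2, against 0.22 and -1.05 in wild type. The plasma membrane aquaporins PIP1-1 and PIP2-1 differed by 0.11 and -0.03. Of 13 aquaporins tested 4 lay above and 3 below wild type on both line 2 arrays, against 15.1% and 17.4% of all genes.

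In the metal and phosphate transport list 3 of 8 genes tested were at least 2-fold apart without overlap, against 10.3% of all genes. PHO1-2, a phosphate exporter that loads phosphate into vessels, averaged -2.40 ± 0.85 in line 2, against 0.64 ± 0.68 in wild type (SD, n = 2 each), and stood at -0.90 and -1.62 on the line 14 arrays (difference of line 2 minus wild type -3.04, SE 0.58, adjusted p = 0.277). NAS2, an enzyme that makes the metal chelator nicotianamine, stood at -2.86 and -1.93 in line 2 and at -5.86 and -3.84 in line 14, against -6.72 and -5.91 in wild type (difference 3.92, SE 0.77, adjusted p = 0.285). ZIP1, a zinc transporter gene, stood at -5.80 and -7.10 in line 2, against -9.13 and -9.32 in wild type. That was 3.86-fold over the floor, and line 14 stood at -7.69 and -8.66. These 3 genes were named because their line 2 and wild-type arrays did not overlap. In NAS2 and ZIP1 the line 2 arrays also stood above both line 14 arrays.

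The remaining list members at least 2-fold apart without overlap were 2 WRKY factors, MET1A, CHS1 and ADH2. WRKY76, a repressor of defence genes, was not well above background in line 2, at -8.97 and -7.92, against -5.44 and -4.76 in wild type. Counted from the floor or its own signal where higher, it was 7.69-fold lower in line 2 (adjusted p = 0.479). WRKY24, a repressor of gibberellin and abscisic acid responses in aleurone, stood at -5.08 and -5.28 in line 2, against -3.40 and -4.70 in wild type. MET1A, a maintenance DNA methyltransferase, stood at -3.14 and -3.33 in line 2, against -5.17 and -4.19 in wild type. CHS1, chalcone synthase, the entry to flavonoid synthesis, stood at -6.18 and -7.71 in line 2, against -4.54 and -4.94 in wild type. ADH2, an alcohol dehydrogenase induced by low oxygen, stood at -2.46 and -1.66 in line 2, against -1.11 and -0.89 in wild type, whereas its paralog ADH1 differed by -0.23.

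Several lists gave small differences. The 7 antioxidant enzymes differed by -0.25 to 0.16 and all overlapped, while 32.5% of all genes did not overlap. Class III HD-ZIP genes, which pattern vascular tissue, had a median difference of -0.01 over 4 genes. Photosynthesis genes had a median of 0.41 over 6 genes, all of positive sign, and 2 lay above wild type without overlap, against 15.1% of all genes. In the cell wall list 4 of 13 genes lay above wild type on both line 2 arrays and none below, against 15.1% and 17.4% of all genes, and the one with the largest difference, EXPA5, an expansin that loosens walls, stood at 3.87 and 4.02 in line 2, against 3.32 and 2.99 in wild type. Cell cycle genes included CDKB2-1 and CYCB2-2, which act at entry to mitosis. CDKB2-1 stood at 1.87 and 1.19 in line 2 and at -0.63 and 0.59 in line 14, against 0.76 and 0.90 in wild type. The housekeeping genes ACT1, EF1A and EIF4A differed by 0.17, 0.04 and 0.01.

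**Figure D5:**
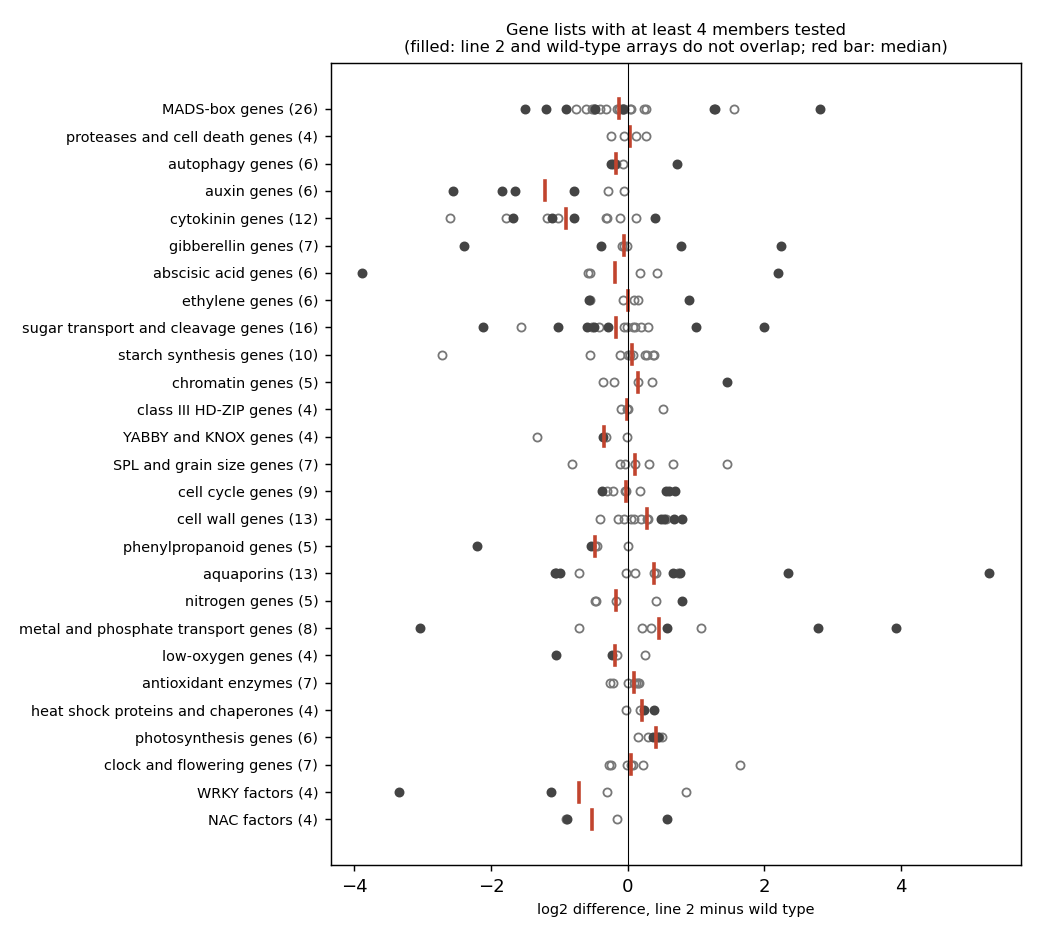
Log2 difference of line 2 minus wild type (horizontal axis) of each member of the lists with at least 4 members tested (rows, number tested in brackets), filled where the line 2 and wild-type arrays did not overlap. The red bar is the list's median, which lies at -1.22 for auxin genes and -0.91 for cytokinin genes and between -0.8 and 0.5 for the others.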

How the data were processed

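Each sample was hybridised to 1 Agilent 1-colour rice array, and the authors deposited the scanner output. Per the file headers, Agilent Feature Extraction 10.7.3.1 gave each spot a background-subtracted and detrended intensity, not normalized between arrays, and flags for signal well above background. The authors' deposited value table holds log2 values with nearly identical distributions on every array (column medians 10.4). Its scale and centring are not stated, and it was used as an alternative. The sources used here do not give a genome build for the probes.

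Control spots (1417 of 45151) and 59 design control probes were removed. The log2 intensity was averaged over spots of a probe and set relative to each array's 75th percentile. Of 42418 probes, the 32419 well above background on both arrays of a group were kept, and the brightest stood for its locus. All 6 arrays were fitted with group means in limma 3.58.1 (R 4.3.3, lmFit and eBayes, 3 residual degrees of freedom), and the fit was tested on simulated data. Locus IDs of 340 named genes in 33 lists came from general knowledge, and 254 whose name and chromosome matched the RefSeq table within 2 Mb were used (247 lie within 1 Mb, the tolerance first set; it was widened after values were seen). The members and lists were chosen with earlier results of these data known. Genes named are OsMADS29, all called genes, 2 unnamed loci in each direction with the largest differences on all 4 arrays, list members at least 2-fold apart without overlap (a rule set after values were seen), and further members given for their role. Lists that need gene descriptions, such as ribosomal proteins, were not formed. With 2 arrays a group, their number limits the precision, and p-values measure the spread between these arrays.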

Additional observations from a re-analysis of the deposited data

How the results depend on the processing

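The 5 calls (4 higher, 1 lower) changed with the processing. Quantile normalization and the authors' value table each gave 10 calls (8 higher, 2 lower), of which 4 were shared with the 5. Median scaling gave 4 (0 lower) and normexp correction 7 (3 lower). The intensity trend gave 9 (4 lower). Without a filter on dim probes, with every probe on its own and with array weights there were 2 each (2 higher, 0 lower). An adjusted p under 0.1 gave 37 calls (21 higher, 16 lower). There were 0 calls (0 higher, 0 lower) by limma among genes well above background on all 4 arrays (1065 at an unadjusted p under 0.05), with slide 1 alone (1351) and with the replicate block (1592). Without any 1 of the 4 arrays, or either line 14 array (chosen after seeing the data), there were also 0 calls, with 1095 to 3027 at an unadjusted p under 0.05. Here the lone array of a group is assumed to vary like the other groups. Replicate numbers did not pair the samples: same-numbered deviations of line 2 and wild type correlated at r = 0.0649, so the block removes degrees of freedom from 2 arrays a group.

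The difference of OsMADS29 was -0.32 with the replicate block. It ran from -0.90 to 0.27 when 1 array was left out, and turned positive, to 0.27, without line 2 replicate 1. Of 90 values of the called genes under the alternatives 54 lost the call, and none of the 90 turned its sign. The 660 values of the 31 list members at least 2-fold apart and the 4 unnamed loci also kept their sign. In all these genes, called or not, the line 2 and wild-type arrays did not overlap. Leaving out 1 array therefore could not turn the sign, and the kept signs are in part set by the choice of genes. The members given for their role were not followed one by one. Genes at least 2-fold apart without overlap numbered 1084 higher and 1203 lower, 696 and 711 with normexp, and 578 and 857 among genes well above background on all 4 arrays. With 1 array left out they ran from 1453 to 2634 higher and from 1479 to 2485 lower. List medians of 20 lists stayed within 1 SD of the replicates in 369 of 380 values. The causes were not tested. For genes near background the folds are counted from the floor and are not strict bounds.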

Other observations

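The array also carries probes for microRNAs and their flanks, of which 98 passed the filter. Their median difference was -0.41, beside 0.01 over all genes. Both line 2 arrays lay above both wild-type arrays for 9 of them and below for 24, against 15.1% and 17.4% of all genes tested. None was called by limma, and 12 (12.2%) had an unadjusted p under 0.05, against 6.41% of all genes tested. Each microRNA probe was tested on its own, with no choice of 1 per locus. Of the 98 probes, 5 were among the 277 detected only in line 2 and 6 among the 124 detected only in wild type. Those sets are 1.24% and 0.556% of all genes. An unadjusted p under 0.05 was common in them, at 205 of 277 and 104 of 124.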
